A study of Homo sapiens with 24 samples.

Results

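The 8 genes described here are EGR1, EGR2, EGR3, IER2, IER3, DUSP1, DUSP5 and DUSP6, a set of immediate early and ERK feedback genes. They were taken by symbol from the tables, so they are 8 of 37247 gene ids. The set was proposed with earlier results of these data in view. RNA was sequenced from MDA-MB-231, a mesenchymal-like human breast cancer cell line, in 24 libraries of 8 groups with 3 libraries each. The 4 lines were dSAP and dSRF, which are mutant forms of MRTF-A, then WT, which is wild-type MRTF-A, and control. The labels do not say what either mutation removes, what the control line carries, or whether a line is 1 clone. MRTF-A was induced with doxycycline at 1 ug/ml for 72 h, and control libraries carry the same doxycycline label. Cells grew on top of matrigel (3D, with matrigel in the medium) or on culture plates (2D), with serum in both, so all values are levels in growing cells after 72 h and not an acute response. Nothing in the labels says that the 3 libraries of a group came from separate cultures, so p-values measure the spread between these libraries.

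Immediate early genes are switched on within minutes of a growth signal, without new protein synthesis. Part of them is driven by serum response factor (SRF), which binds the CArG box in their promoters together with either ETS-family cofactors, which ERK phosphorylates, or the actin-regulated cofactors of the MRTF family. EGR proteins are zinc-finger transcription factors of this class. The DUSP proteins are phosphatases that remove phosphate from MAP kinases, and their own induction by ERK makes them a negative feedback on the pathway.

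EGR1 (ENSG00000120738) lies on chromosome 5 at 138465490 to 138469315 on the + strand of GRCh38 and EGR2 (ENSG00000122877) on chromosome 10 at 62811996 to 62919900 on the - strand. IER2 (ENSG00000160888) lies on chromosome 19 at 13150415 to 13154908 on the + strand. DUSP1 (ENSG00000120129) lies on chromosome 5 at 172768090 to 172771195 on the - strand, DUSP5 (ENSG00000138166) on chromosome 10 at 110497838 to 110511544 on the + strand and DUSP6 (ENSG00000139318) on chromosome 12 at 89347232 to 89353271 on the - strand. IER3 (ENSG00000137331), on chromosome 6 at 30743199 to 30744554, sits in the MHC region, for which the reference genome holds alternative copies. Its row is therefore uncertain.

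Promoter windows of 250 bases before to 50 bases after the gene start were found for 5 of the 8 genes (RefSeq, GRCh38.p14). The windows of EGR1, one of the windows of EGR2, and DUSP1 are shown because they hold motifs of the pathway. In 2D dSRF against WT EGR1 and EGR2 were called lower and DUSP1 higher, whereas in 2D WT against control these genes were all called higher. No link between a motif and a direction was tested. Capitals mark a CArG box in EGR1 and EGR2, and the letters TGACGTCA and TATAAA in DUSP1.
EGR1 promoter, chr5:138465229-138465528, + strand: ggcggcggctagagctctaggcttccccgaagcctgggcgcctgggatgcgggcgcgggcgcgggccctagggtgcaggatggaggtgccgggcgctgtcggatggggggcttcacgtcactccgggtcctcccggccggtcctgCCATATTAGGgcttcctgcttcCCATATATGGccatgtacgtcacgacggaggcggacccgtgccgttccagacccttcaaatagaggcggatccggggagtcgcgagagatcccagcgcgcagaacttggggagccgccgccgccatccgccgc
EGR2 promoter, chr10:62816317-62816616, - strand: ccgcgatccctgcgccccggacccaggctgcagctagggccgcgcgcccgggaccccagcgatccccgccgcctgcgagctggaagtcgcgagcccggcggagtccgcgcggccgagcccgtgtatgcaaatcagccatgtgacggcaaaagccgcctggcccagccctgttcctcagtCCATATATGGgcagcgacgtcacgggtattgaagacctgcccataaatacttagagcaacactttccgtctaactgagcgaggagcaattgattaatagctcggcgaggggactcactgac
DUSP1 promoter, chr5:172771146-172771445, - strand: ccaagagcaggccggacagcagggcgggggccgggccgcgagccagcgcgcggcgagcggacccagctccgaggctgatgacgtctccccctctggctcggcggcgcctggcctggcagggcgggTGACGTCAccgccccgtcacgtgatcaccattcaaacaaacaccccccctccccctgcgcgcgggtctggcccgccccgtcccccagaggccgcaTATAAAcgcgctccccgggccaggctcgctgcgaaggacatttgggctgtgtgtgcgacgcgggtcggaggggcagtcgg

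Both strands were searched. The EGR1 window holds 2 matches to the CArG box, starting at -105 and -83 from the gene start, and the EGR2 window shown holds 1 at -71. A CArG box was found in 1.29% of 35116 promoter windows of this length. The DUSP1 window holds no CArG box but the cAMP response element TGACGTCA at -125, which 1.85% of windows hold, and TATAAA at -30, which 11.5% hold. The IER2 window holds the ETS motif CCGGAA at -26 (17.2% of windows). Neither the DUSP6 window, nor the other EGR2 windows, held a match to any motif searched for, which were the CArG box, the cAMP response element, its shorter core TGACG (which overlaps it), the ETS motif, the TATA letters, and the AP-1 motif TGANTCA. The EGR motif GCGTGGGCG was searched for too and found in none of the members' windows. The core TGACG was found in EGR1 at -135 and -66, in the EGR2 window shown at -110 and -54, and in IER2 at -140. DUSP1 held it at -172, -125, -122 and -111, so the core does not set DUSP1 apart from EGR1 and EGR2. The core, AP-1 and EGR letters occur in 24.6%, 7.71% and 0.795% of windows. The matches are letters in a window and say nothing about binding in these cells.

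Total counts per library ran from 13968829 to 23023415, and the induced gene, MRTFA, was the check of the labels. MRTFA stood at 664 to 10716 CPM (counts scaled to library size by TMM, the unit of every level below unless TPM is named) in the libraries titled dSAP, dSRF or WT, and at 28.8 to 39.1 CPM in those titled control. The check tells induced libraries from control libraries. It cannot tell which form of MRTF-A a library carries or in which culture its cells grew. Groups follow the titles, which a second label, the genotype, contradicts for 16 of the 24 libraries. The library labelled 3D dSRF 1 stood apart, with 664 CPM of MRTFA against 4840 and 4857 CPM in the other 3D dSRF libraries. Across genes its log2 CPM correlated at r = 0.971 with the mean of the 2D dSRF libraries and at r = 0.952 with the mean of the other 3D dSRF libraries. For the 8 genes, each call that changed when this library was left out of the fit is given beside the result. The fit without it called a larger share of all genes in all 17 comparisons (11.4% to 72.9%). VIM (1156 to 1889 CPM) and CD44 (658 to 1601 CPM) were high, and ESR1 (up to 0.0699 CPM), PGR (up to 0.112 CPM) and CDH1 (0.0503 to 2.52 CPM) were low or at 0. ERBB2, at 87.6 to 113 CPM, was present in all libraries. The epithelial marker EPCAM was higher in dSRF, at 100 ± 39.7 CPM in 3D dSRF against 16 ± 0.645 in 3D control and 92.0 ± 3.44 in 2D dSRF against 26.8 ± 3.07 in 2D control (log2 2.65 and 1.78, edgeR adjusted p = 8.54e-10 and 1.53e-07). Of the 5 line markers tested, 1 rose and 1 fell in 3D dSRF (1 and 2 without the library labelled 3D dSRF 1) and 2 rose and 3 fell in 2D dSRF. The 5 were VIM, CD44, CDH1, EPCAM and ERBB2. In 2D dSRF CD44 rose beside EPCAM (0.32, edgeR adjusted p = 1.36e-05). ERBB2 fell there (-0.32, edgeR adjusted p = 2.23e-05, lost when TPM values were fitted), as did VIM and CDH1. The epithelial markers EPCAM and CDH1 thus moved in opposite directions in 2D dSRF. In 3D dSRF neither CD44 (-0.11) nor ERBB2 (-0.06) was called with all libraries. CD44 was called lower in dSAP and WT, at -0.69 and -0.52 in 3D and -0.42 and -0.14 in 2D (edgeR adjusted p = 2.76e-09, 7.63e-08, 2.57e-06 and 0.0296). ERBB2 was called lower in 2D WT (-0.15, edgeR adjusted p = 0.0294). The 2D WT calls of CD44 and ERBB2 were lost in 6 and 7 of 14 alternative fits. EPCAM was not called in dSAP or WT in the edgeR fit of all libraries. In a bulk sample, a change in the share of cells that make a transcript and a change per cell cannot be told apart, and the part of these markers in the results was not tested.

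Differences were tested with edgeR's quasi-likelihood test over 14986 genes, and a gene is called where its p, adjusted by the Benjamini-Hochberg method, is under 0.05. All 8 genes passed the filter on low counts, EGR3 with 68 and 56 of its 202 counts in 3D dSRF and 2D dSRF. Outside dSRF no EGR3 library passed 0.503 CPM, so this gene met the filter only through dSRF libraries. Its calls in dSRF are therefore not independent of the filter. Fold changes are log2 and carry a standard error, and levels are means ± SD over 3 libraries.

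Calls against control numbered 6 in 3D and 6 in 2D for dSRF, 3 and 5 for WT, and 2 and 3 for dSAP. In 3D dSRF against control 5 of the 8 genes were higher (DUSP1, DUSP5, DUSP6, IER2 and EGR3) and 1 lower (EGR1), where 66.4% of all genes tested were called (35.1% higher, 31.3% lower). In 2D dSRF against control the same 5 were higher and the same 1 lower, where 66.0% were called (34.5% higher, 31.5% lower). WT against control gave 1 higher (DUSP5) and 2 lower (EGR1 and DUSP6) in 3D, where 35.0% of genes were called (18.0% higher, 17.0% lower), and 4 higher (DUSP1, EGR1, EGR2 and DUSP5) and 1 lower (DUSP6) in 2D, where 39.3% were called (20.1% higher, 19.2% lower). For dSAP, DUSP5 was higher and DUSP6 lower in 3D (29.6% of genes called, 16.5% higher and 13.1% lower), and DUSP1 and DUSP5 were higher and DUSP6 lower in 2D (32.9%, 17.5% higher and 15.4% lower). The 3 lines of a culture are set against the same control libraries, so their changes are not independent of each other. The median change of the 8 genes was 1.50 in 3D dSRF and 1.44 in 2D dSRF, 0.14 in 3D WT and 1.50 in 2D WT, 0.21 in 3D dSAP and 0.78 in 2D dSAP, beside medians between -0.02 and 0.02 over all genes tested. The medians include the low-count rows of IER3 and EGR3. These stood at 2.82 and 2.39 in 2D WT and at 2.82 and 1.96 in 2D dSAP, without a call in the edgeR fit of all libraries. With a large share of all genes called in each comparison, nothing particular to these 8 is read from their counts or medians.

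**Figure D1:**
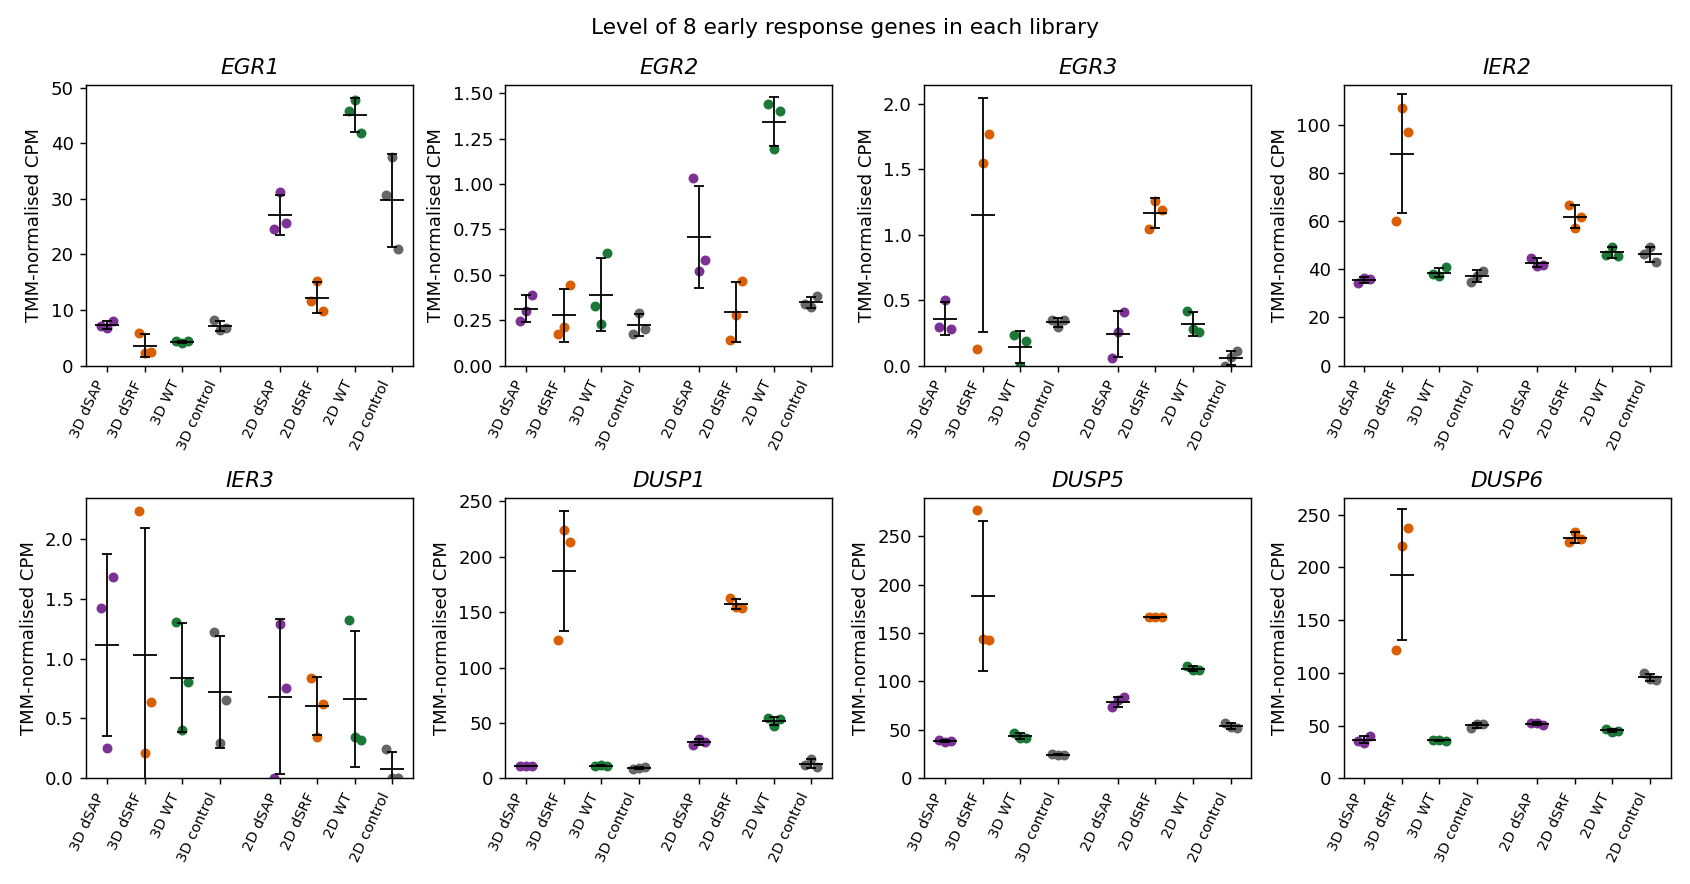
Level of each of the 8 genes in TMM-scaled CPM (vertical axes start at 0) in the 24 libraries, 1 point per library, with the mean and SD of the 3 libraries of each group. The dSRF points stand highest for DUSP1, DUSP5, DUSP6 and IER2 and the 2D WT points for EGR1 and EGR2, and the library labelled 3D dSRF 1 is the odd point of its group.

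EGR1, a zinc-finger factor and a classic SRF target, was lower in 3D than in 2D in every line and lower in dSRF than in control in both cultures. It was measured at 7.04, 6.69 and 8.11 CPM in 3D dSAP, at 5.93, 2.35 and 2.47 in 3D dSRF, at 4.35, 4.01 and 4.37 in 3D WT and at 8.23, 6.43 and 6.77 in 3D control. In 2D it stood at 24.5, 31.3 and 25.7 CPM in dSAP, at 11.6, 15.3 and 9.77 in dSRF, at 45.8, 47.8 and 41.8 in WT and at 30.7, 37.6 and 21.0 in control. Every 3D library lay below every 2D library, and 2D WT stood above all other groups without overlap. In order of mean level the groups ran 2D WT, 2D control, 2D dSAP, 2D dSRF, 3D dSAP, 3D control, 3D WT and 3D dSRF, with overlap between 2D control and 2D dSAP, between 3D dSAP and 3D control, and between 3D WT and 3D dSRF.

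Against control EGR1 in dSRF changed by -0.97 ± 0.28 in 3D (adjusted p = 0.00445) and by -1.29 ± 0.25 in 2D (adjusted p = 0.000137, both from edgeR). With the library labelled 3D dSRF 1 left out the 3D value was -1.57 (adjusted p = 3.07e-05), and in a fit of only the libraries compared it was not called (adjusted p = 0.0804). WT moved EGR1 in opposite directions, lower in 3D (-0.75 ± 0.27, adjusted p = 0.0400) and higher in 2D (0.60 ± 0.23, adjusted p = 0.0486). Both WT calls are marginal. The 3D call was lost when any 1 of the 6 libraries was left out (adjusted p = 0.0533 to 0.139) or with no filter (adjusted p = 0.0846). The 2D call was lost without 2D control 1, 2D control 3 or any 2D WT library (adjusted p = 0.0694 to 0.226) and in 4 other settings (adjusted p = 0.0693 to 0.106). The test of the difference itself, WT effect in 3D minus WT effect in 2D, gave -1.35 ± 0.36 (adjusted p = 0.0224), a call lost without 2D control 3, 3D control 1 or 3D WT 2 (adjusted p = 0.0533 to 0.0655). In dSAP, EGR1 stood at 0.03 ± 0.26 in 3D and at -0.13 ± 0.24 in 2D against control, and neither was called.

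EGR2, which acts in nerve myelination and in lymphocytes, was near its limit of detection, with 205 counts in all 24 libraries together. The 2D WT libraries held 24, 17 and 22 counts (1.44, 1.19 and 1.40 CPM), above every library of the other groups. The 2D dSAP libraries held 1.03, 0.518 and 0.579 CPM, the 2D dSRF libraries 0.139, 0.280 and 0.465, and the 2D control libraries 0.340, 0.321 and 0.381. In 3D the gene ranged from 0.172 to 0.617 CPM over the 12 libraries, and the groups overlapped. EGR2 was higher in 2D WT than in 2D control by 1.93 ± 0.43 (adjusted p = 0.00119), or 3.87 times as a ratio of summed counts per depth (95% counting interval 2.29 to 6.85). On log2(TPM + 1), a scale that understates changes of low genes, the difference was 0.74 and was called. It was not called in 2D dSAP, where all libraries exceeded control (1.02 ± 0.44, adjusted p = 0.0815), nor in 2D dSRF (-0.19 ± 0.48, adjusted p = 0.798).

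EGR3 (ENSG00000179388) was the rarest of the 8, with 202 counts in all and 3 counts over the 2D control libraries together. Its means were highest in dSRF, through which alone it passed the filter, at 0.129, 1.55 and 1.77 CPM in 3D and at 1.04, 1.26 and 1.19 CPM in 2D. The 3D control libraries held 0.348, 0.292 and 0.351 CPM and the 2D control libraries 0, 0.0642 and 0.109 CPM. The 3D dSRF group overlapped 3D control only through the library labelled 3D dSRF 1, which held 3 counts where the other 3D dSRF libraries held 29 and 36. As a ratio of summed counts per depth EGR3 was 3.29 times as high in 3D dSRF as in 3D control (95% interval 1.94 to 5.88; adjusted p = 0.0368 in the edgeR fit) and 21.2 times as high in 2D dSRF as in 2D control (6.89 to 106; adjusted p = 0.000501). The intervals cover counting error only. The 3D call was lost without any 3D control library, without 3D dSRF 2 or without 3D dSRF 3 (adjusted p = 0.0790 to 0.165). It was also lost with no filter or with a replicate block (adjusted p = 0.0565 to 0.0599). It was kept, at 2.30, without the library labelled 3D dSRF 1 (adjusted p = 0.000592). Ratios against 2D control of 4.26 (1.15 to 23.5) in 2D dSAP and 5.84 (1.65 to 31.5) in 2D WT were not called (adjusted p = 0.173 and 0.0769), though the 2D WT one was without the library labelled 3D dSRF 1 (adjusted p = 0.0129). In 3D dSAP EGR3 stood at 0.12 against control without a call (adjusted p = 0.938), but was called by limma on both TPM scales (adjusted p = 0.0422 to 0.0452).

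IER2, a nuclear immediate early protein, was higher in dSRF in both cultures. It was measured at 34.2, 36.6 and 35.9 CPM in 3D dSAP, at 60.0, 107 and 96.9 in 3D dSRF, at 38.0, 37.1 and 40.8 in 3D WT and at 34.7, 37.4 and 39.5 in 3D control. The 2D values were 44.8, 41.5 and 41.9 CPM in dSAP, 66.8, 57.1 and 61.8 in dSRF, 46.1, 49.4 and 45.5 in WT and 46.3, 49.4 and 43.0 in control. All dSRF libraries exceeded all others, and within a culture WT and control overlapped. IER2 rose by 1.24 ± 0.13 in 3D dSRF (adjusted p = 1.17e-07) and by 0.42 ± 0.13 in 2D dSRF (adjusted p = 0.00961) against control. The larger difference in 3D was called, at 0.82 ± 0.19 (adjusted p = 0.00272), or 1.03 without the library labelled 3D dSRF 1. Against control IER2 stood at -0.06 and 0.06 in 3D dSAP and 3D WT and at -0.11 and 0.02 in 2D dSAP and 2D WT, each with a standard error of 0.14 and none called.

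The IER3 row, whose gene product modulates survival and ERK signalling, held 0 to 52.2 estimated counts per library. It ranged from 0.214 to 2.23 CPM over the 12 libraries of 3D and from 0 to 1.32 CPM over those of 2D, and the SD of a group ran from 0.140 CPM (mean 0.0810, 2D control) to 1.07 CPM (mean 1.03, 3D dSRF). In the main edgeR fit, of all libraries and without a replicate block, IER3 was called in none of the 14 comparisons between groups and none of the 3 differences of effect. Leaving out 2D control 1, edgeR called it in 2D dSRF and 2D WT against control and in control 3D against 2D (adjusted p = 0.0294 to 0.0428). Leaving out 2D dSAP 1, edgeR called it in 2D dSAP against control (adjusted p = 0.0376). DESeq2 called it in 2D dSRF and 2D WT against control and in control 3D against 2D. The replicate block did so in 2D dSAP and 2D dSRF against control and in control 3D against 2D, and limma on log2(TPM + 0.1) in 2D dSRF against control and in control 3D against 2D. Given its position in the MHC region, no direction is read from it.

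DUSP1, a nuclear phosphatase of p38, JNK and ERK, was far higher in dSRF than in control in both cultures, and higher in dSAP and WT in 2D. It was measured at 11.3, 10.9 and 11.5 CPM in 3D dSAP, at 125, 224 and 213 in 3D dSRF, at 11, 11.8 and 11 in 3D WT and at 8.23, 8.89 and 10.2 in 3D control. In 2D it stood at 29.9, 35.1 and 32.7 CPM in dSAP, at 163, 155 and 154 in dSRF, at 54.7, 47.5 and 53.1 in WT and at 12.1, 17.7 and 9.90 in control. The 2D groups formed a ladder without overlap, dSRF above WT above dSAP above control, whereas in 3D only dSRF stood far from control. DUSP1 was 20.5 times as high in 3D dSRF as in 3D control (4.36 ± 0.20, adjusted p = 5.66e-13) and 12 times as high in 2D dSRF as in 2D control (3.58 ± 0.19, adjusted p = 7.32e-12). In 2D it was 2.48 times as high in dSAP (1.31 ± 0.19, adjusted p = 2.36e-05) and 3.94 times as high in WT (1.98 ± 0.19, adjusted p = 6.74e-08) as in control. The 3D libraries of dSAP and WT also exceeded those of control, each by 0.30 ± 0.20, and neither was called (adjusted p = 0.310 and 0.276), though both were in fits of only the libraries compared (adjusted p = 0.0398 and 0.0224).

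For DUSP1 the change in effect between cultures ran in opposite directions by line. The WT effect was smaller in 3D than in 2D by -1.67 ± 0.28 (adjusted p = 0.000579). The dSRF effect was larger in 3D by 0.78 ± 0.26 (adjusted p = 0.0321), or 0.99 without the library labelled 3D dSRF 1. That dSRF call was lost without any 1 of 2D control 2, 2D dSRF 2, 2D dSRF 3, 3D control 1, 3D control 2, 3D dSRF 2 or 3D dSRF 3 (adjusted p = 0.0550 to 0.126) and in 4 other settings (adjusted p = 0.0559 to 0.131). The dSAP effect stood at -1.01 ± 0.28 and was not called (adjusted p = 0.0629), but was without 2D control 2 or the library labelled 3D dSRF 1 (adjusted p = 0.00216 to 0.0120), and with DESeq2 or only the libraries compared (adjusted p = 0.00999 to 0.0196).

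DUSP5, a nuclear phosphatase specific for ERK, was the one gene of the set called higher than control by edgeR in every line and culture. All libraries of DUSP1 also lay above control in every line and culture, but its 3D dSAP and 3D WT differences were not called. It was measured at 39.2, 37.6 and 39.0 CPM in 3D dSAP, at 277, 144 and 143 in 3D dSRF, at 46.7, 42.0 and 41.7 in 3D WT and at 24.8, 24 and 24.2 in 3D control. The 2D levels were 73.2, 80.5 and 83.5 CPM in dSAP, 167, 166 and 166 in dSRF, 116, 112 and 112 in WT and 57.3, 53.2 and 51.8 in control. Within a culture the groups did not overlap, and their order was dSRF, WT, dSAP, control in both. Against control DUSP5 rose by 0.67 ± 0.17 in dSAP (adjusted p = 0.00565), by 2.95 ± 0.17 in dSRF (adjusted p = 2.27e-11) and by 0.84 ± 0.17 in WT (adjusted p = 0.000673) in 3D. In 2D the rises were 0.55 ± 0.16 in dSAP (adjusted p = 0.0141), 1.62 ± 0.16 in dSRF (adjusted p = 6.07e-08) and 1.07 ± 0.16 in WT (adjusted p = 3.15e-05). The 2D dSAP call was lost without 2D control 3 or without 2D dSAP 3 (adjusted p = 0.0518 to 0.0522). The dSRF effect on DUSP5 was larger in 3D by 1.33 ± 0.23 (adjusted p = 0.000239), a value that rests in part on the 277 CPM of the library labelled 3D dSRF 1 and was 0.94 without it.

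DUSP6, the cytoplasmic ERK phosphatase often read as a gauge of ERK output, was higher in dSRF and lower in dSAP and WT than in control, in both cultures. It was measured at 35.6, 33.8 and 40.2 CPM in 3D dSAP, at 122, 220 and 237 in 3D dSRF, at 36.2, 36.6 and 35.0 in 3D WT and at 47.7, 51.9 and 51.1 in 3D control. Its 2D levels were 52.9, 52.4 and 50.5 CPM in dSAP, 224, 234 and 227 in dSRF, 47.1, 44.4 and 45.3 in WT and 99.8, 94.4 and 93.1 in control. In both cultures every dSRF library lay above control and every dSAP and WT library below it. DUSP6 rose in dSRF by 1.94 ± 0.15 in 3D (adjusted p = 1.13e-09) and by 1.25 ± 0.15 in 2D (adjusted p = 3.94e-07). It fell in dSAP by 0.46 on the log2 scale in 3D (adjusted p = 0.0277) and by 0.88 in 2D (adjusted p = 0.000129), and in WT by 0.48 in 3D (adjusted p = 0.0177) and by 1.07 in 2D (adjusted p = 1.17e-05), each with a standard error of 0.15. The 3D falls are small. The dSAP call was lost on both TPM scales (adjusted p of at least 0.126) and without 3D control 2, 3D control 3, 3D dSAP 1 or 3D dSAP 2 (adjusted p = 0.0674 to 0.102). The WT call was lost without 3D control 2 or 3D WT 3 (adjusted p = 0.0512 to 0.0546). The dSRF effect was larger in 3D by 0.69 ± 0.21 (adjusted p = 0.0165), or 0.93 without the library labelled 3D dSRF 1, and was not called without 3D dSRF 3 (adjusted p = 0.0515), nor on both TPM scales or with only the libraries compared (adjusted p = 0.0563 to 0.0942).

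**Figure D2:**
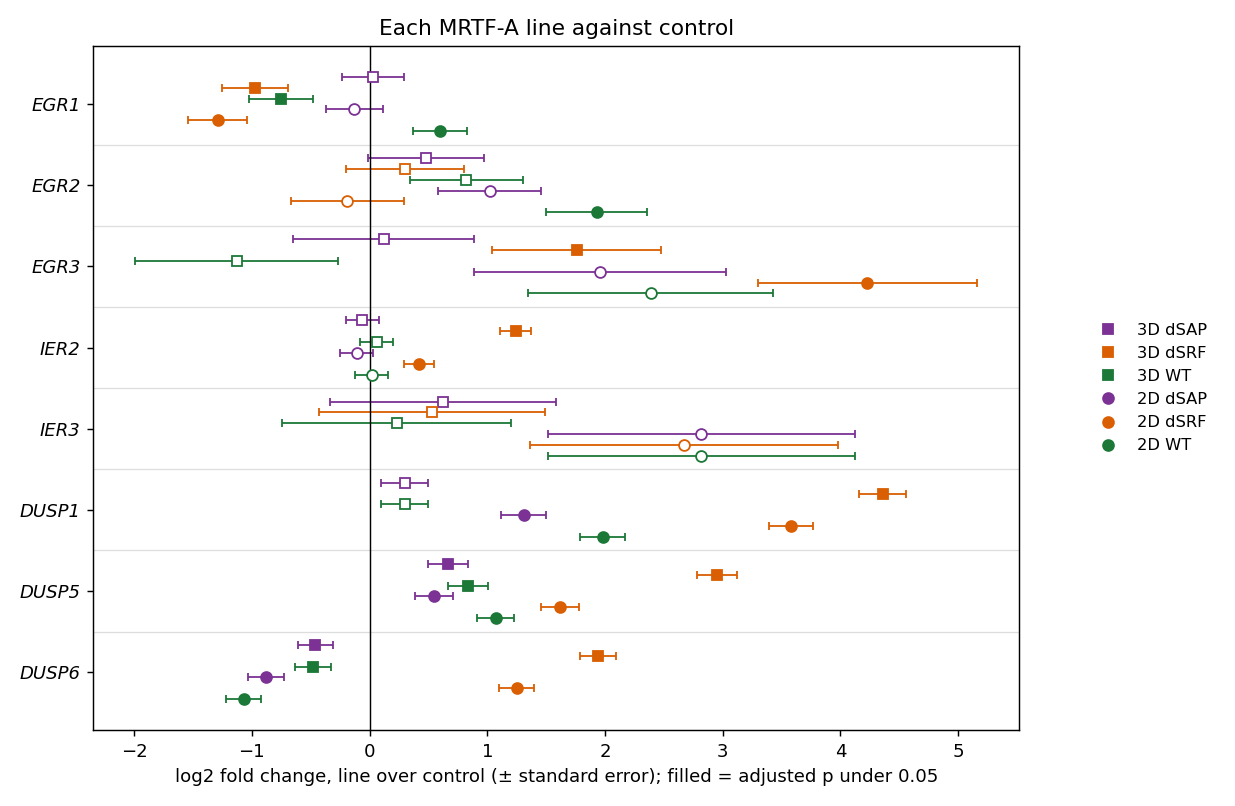
Log2 fold change of each of the 8 genes in each MRTF-A line over control of the same culture, with standard errors from the edgeR fit. Squares are 3D and circles 2D, and filled symbols have an adjusted p under 0.05. For DUSP6 the dSRF symbols lie at 1.94 and 1.25 and the dSAP and WT symbols between -1.07 and -0.46.

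The mutants were next set against WT, all with induced MRTF-A. The level of MRTFA, by line, averaged 10504 ± 294 CPM in 3D dSAP, 3454 ± 2416 in 3D dSRF and 4516 ± 85.3 in 3D WT. In 2D it averaged 9141 ± 442 CPM in dSAP, 3237 ± 107 in dSRF and 4740 ± 195 in WT. In dSAP against WT the MRTFA difference was 1.22 ± 0.39 in 3D, which was called (edgeR adjusted p = 0.0489), and 0.95 ± 0.39 in 2D, which was not (adjusted p = 0.124), with all dSAP libraries above all WT libraries. In dSRF against WT it stood at -0.39 ± 0.39 in 3D and -0.55 ± 0.39 in 2D, and neither was called. The mutation and the level of MRTFA cannot be told apart in these comparisons. In 3D dSAP against WT 0 of the 8 genes were called by edgeR, where 12.1% of all genes were (5.45% higher, 6.63% lower). EGR1 alone had an unadjusted p under 0.05 (0.78 ± 0.27, adjusted p = 0.0723), 1 gene (EGR1) was called by DESeq2 and 2 (EGR1 and EGR3) by limma on log2(TPM + 1). EGR1 was also called higher when the library labelled 3D dSRF 1 was left out (0.77, adjusted p = 0.00975), and DUSP5 lower (-0.17, adjusted p = 0.0139). In that fit 27.2% of all genes were called. In 2D dSAP against WT 3 genes were lower and 0 higher, where 12.8% of all genes were called (5.09% higher, 7.71% lower): EGR1 by -0.73 ± 0.24 (adjusted p = 0.0462), DUSP1 by -0.67 ± 0.18 (adjusted p = 0.0153) and DUSP5 by -0.52 ± 0.16 (adjusted p = 0.0387). All 3 are near the threshold. Those of EGR1 and DUSP5 were lost when any 1 of the 6 libraries was left out (adjusted p = 0.0575 to 0.169 and 0.0708 to 0.147), and that of DUSP1 without 2D WT 1, 2D WT 3 or 2D dSAP 1 (adjusted p = 0.0505 to 0.0747). On both TPM scales none of the 3 was called, and with no filter EGR1 and DUSP5 were not. The adjusted p in these settings was 0.0772 to 0.118 for EGR1, 0.0651 to 0.0670 for DUSP1 and 0.0610 to 0.0871 for DUSP5. Without the library labelled 3D dSRF 1, which enters the common estimate of spread, the same 3 were called along with DUSP6 (0.19 higher in 2D dSAP, adjusted p = 0.0109), where 27.7% of all genes were called.

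The dSRF line differed from WT in both directions. In 3D dSRF against WT 5 genes were higher and 0 lower, where 65.9% of all genes were called (34.2% higher, 31.6% lower): DUSP1 by 4.05 ± 0.20 (adjusted p = 1.22e-12), DUSP6 by 2.43 ± 0.15 (adjusted p = 6.41e-11), DUSP5 by 2.11 ± 0.17 (adjusted p = 1.46e-09), IER2 by 1.19 ± 0.13 (adjusted p = 2.10e-07) and EGR3, at 7.27 times by summed counts (95% interval 3.61 to 16.6, adjusted p = 0.00301). EGR3 met the low-count filter only through dSRF libraries, so its calls against WT are not independent of the filter. In 3D its dSRF and WT libraries overlapped, with 0.129 CPM in the library labelled 3D dSRF 1 and up to 0.234 CPM in 3D WT. EGR1 stood at -0.22 ± 0.29 (adjusted p = 0.509) and at -0.82 without the library labelled 3D dSRF 1 (adjusted p = 0.0125). In 2D dSRF against WT the same 5 were higher and EGR1 and EGR2 lower, where 64.0% of all genes were called (33.6% higher, 30.4% lower). DUSP6 was 5.00 times as high in 2D dSRF as in 2D WT (2.32 ± 0.15, adjusted p = 1.54e-10) and DUSP1 3.03 times (1.60 ± 0.17, adjusted p = 1.48e-07), whereas DUSP5 differed by 0.55 ± 0.16 (adjusted p = 0.00536) and IER2 by 0.40 ± 0.13 (adjusted p = 0.0145, lost without 2D WT 1 or 2D dSRF 1 at adjusted p = 0.0564 to 0.0605). On the TPM scales IER2 differed by 0.64 and 0.65. EGR1 fell by 1.89 on the log2 scale (standard error 0.25, adjusted p = 1.85e-06) and EGR2 by 2.12 (standard error 0.44, adjusted p = 0.000301). EGR3 was 3.63 times as high by summed counts (95% interval 2.02 to 6.91, adjusted p = 0.0361), a call lost when any 1 of the 6 libraries was left out (adjusted p = 0.0549 to 0.103) or with no filter (adjusted p = 0.0561).

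Culture was compared within each line, which asks whether growth on matrigel shifts the genes. In dSAP 5 of the 8 were lower in 3D and 0 higher (47.8% of all genes called, 24.2% higher and 23.5% lower), in WT 4 lower and 0 higher (50.0%, 24.4% and 25.7%), and in control 4 lower and 0 higher (47.4%, 23.0% and 24.4%). In dSRF 1 was lower (EGR1) and 1 higher (IER2), where 17.0% of all genes were called (7.19% higher, 9.84% lower), the line with the library that stood apart. A fit of only the libraries compared gave 0 of the 8 and 0 of all genes called in dSRF, and the fit without the library labelled 3D dSRF 1 gave 2 higher (IER2 and DUSP1) and 2 lower (EGR1 and DUSP5), where 48.2% of all genes were called.

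EGR1 was lower in 3D than in 2D in each line, by -1.90 ± 0.25 in dSAP (adjusted p = 5.65e-06), -1.74 ± 0.27 in dSRF (adjusted p = 0.000224), -3.41 ± 0.27 in WT (adjusted p = 6.82e-09) and -2.06 ± 0.25 in control (adjusted p = 2.14e-06). The WT value corresponds to a 10.6-fold lower level. DUSP5 was lower by -1.03 ± 0.17 in dSAP (adjusted p = 4.45e-05), -1.38 ± 0.17 in WT (adjusted p = 1.32e-06) and -1.15 ± 0.17 in control (adjusted p = 1.76e-05). In dSRF it stood at 0.18 ± 0.16, and the sign turned to -0.21 (adjusted p = 0.000912) without the library labelled 3D dSRF 1. DUSP1 was lower in 3D by -1.54 ± 0.19 in dSAP (adjusted p = 2.26e-06), by -2.20 ± 0.19 in WT (adjusted p = 2.10e-08) and by -0.52 ± 0.20 in control (adjusted p = 0.0407). In control the libraries overlapped and the call was lost without 2D control 2, 3D control 1 or 3D control 2 (adjusted p = 0.0895 to 0.287) and in 4 other settings, which were no filter, both TPM scales and only the libraries compared (adjusted p = 0.0699 to 0.104). In dSRF DUSP1 did not pass the test (0.25 ± 0.17), but did without the library labelled 3D dSRF 1 (adjusted p = 0.000811).

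DUSP6 was lower in 3D in control (-0.93 ± 0.15, adjusted p = 4.12e-05) and in dSAP (-0.51 ± 0.15, adjusted p = 0.00983, lost on the TPM scale at adjusted p = 0.133 to 0.138), and stood at -0.24 ± 0.14 in dSRF and -0.35 ± 0.15 in WT without a call (adjusted p = 0.0685 in WT). The WT difference was called without the library labelled 3D dSRF 1 (adjusted p = 5.53e-06) and with only the libraries compared (adjusted p = 2.32e-05). EGR2 fell by 1.75 on the log2 scale in WT (standard error 0.42, adjusted p = 0.00170) and by 1.18 in dSAP (standard error 0.44, adjusted p = 0.0331), the dSAP call being lost without 2D dSAP 1, 3D dSAP 1 or 3D dSAP 2 (adjusted p = 0.0848 to 0.178), and with no filter, with DESeq2 and on both TPM scales (adjusted p = 0.0565 to 0.153). IER2 was 0.51 ± 0.13 higher in 3D dSRF than in 2D dSRF (adjusted p = 0.0119, lost without 2D dSRF 2, 3D dSRF 2 or 3D dSRF 3 at adjusted p = 0.0579 to 0.0868). In dSAP, WT and control all 3D libraries of IER2 lay below all 2D libraries, by -0.26, -0.28 and -0.31, and none was called (adjusted p = 0.119, 0.0920 and 0.0647), though each was in the fit without the library labelled 3D dSRF 1 (adjusted p = 0.00113, 0.000553 and 0.000196). EGR3 went the other way in control, with 18 counts in 3D control against 3 counts in 2D control, a ratio of 6.03 per depth (95% interval 1.76 to 32.0, adjusted p = 0.0565). It was called by DESeq2 (adjusted p = 0.0486) and without the library labelled 3D dSRF 1 (adjusted p = 0.00880).

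**Figure D3:**
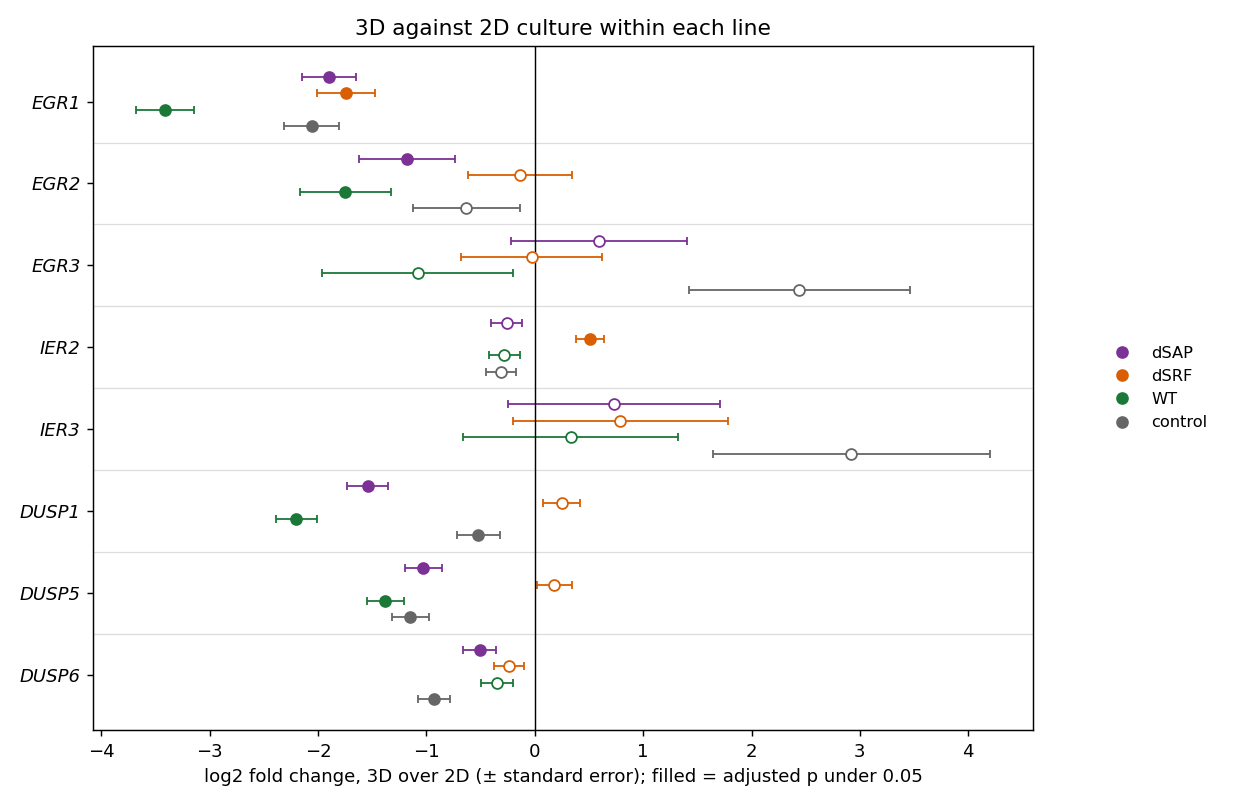
Log2 fold change of each of the 8 genes in 3D over 2D within each line, with standard errors from the edgeR fit and filled symbols at an adjusted p under 0.05. EGR1 lies left of 0 in all 4 lines, down to -3.41 in WT, while the dSRF symbols of DUSP1 and DUSP5 (0.25 and 0.18) stand apart from those of the other lines.

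The difference of a line's effect between cultures was tested as an interaction. For dSRF 4 of the 8 differed, all more positive in 3D (DUSP1, DUSP5, DUSP6 and IER2), where 29.2% of all genes were called (14.7% more positive, 14.6% more negative). For WT 2 differed, both more negative in 3D (DUSP1 and EGR1), where 9.18% were called (4.22% more positive, 4.96% more negative). For dSAP 0 of 8 were called by edgeR, where 2.34% of genes were (1.13% more positive, 1.20% more negative), with DUSP1 alone at an unadjusted p under 0.05 and called by DESeq2 and with 0 called by limma on the TPM values. In the fit without the library labelled 3D dSRF 1 the dSRF count stayed at 4 more positive, where 43.8% of all genes were called. For WT it gave 1 more positive (DUSP6 by 0.59, adjusted p = 1.67e-06) and 4 more negative (EGR1, EGR3, DUSP1 and DUSP5), where 23.8% were called. The 2 gained there were EGR3 (-3.52, adjusted p = 0.0124) and DUSP5 (-0.23, adjusted p = 0.0240). For dSAP it gave DUSP6 more positive (0.42, adjusted p = 0.000328) and DUSP1 more negative, where 11.4% were called. The control libraries of both cultures enter all 3 of these tests.

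Levels between genes were compared as TPM, which is scaled by transcript length. DUSP1 led in 3D dSRF at 251 ± 80.9 TPM, ahead of DUSP6 at 234 ± 80.3, DUSP5 at 193 ± 70.4 and IER2 at 124 ± 36.5. The 3 phosphatases overlapped, and IER2, at 82.2 to 150 TPM, overlapped DUSP6 alone among them. In 2D dSRF DUSP6 led at 259 ± 5.20 TPM, followed by DUSP1 at 200 ± 7.40, DUSP5 at 165 ± 2.52 and IER2 at 82.5 ± 7.25. DUSP5 led in 2D WT at 100 ± 3.07 TPM, with DUSP1 next at 58.3 ± 4.49. In 2D control DUSP6 led at 104 ± 3.77 TPM while DUSP1 stood at 15.9 ± 4.83, so the order of the phosphatases differed between lines. EGR1 never passed 30.9 TPM in a library, and EGR2 and EGR3 never passed 1.65 and 1.06 TPM.

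The wider pathway was counted from lists of related genes, against the same background shares. Among all genes tested 35.1% rose and 31.3% fell in 3D dSRF, and 34.5% rose and 31.5% fell in 2D dSRF. In dSAP and WT 16.5% to 20.1% of all genes rose and 13.1% to 19.2% fell. Of 18 genes of ERK output, such as SPRY, SPRED and ETV genes, 12 rose and 5 fell in 3D dSRF (median 0.61), while 7 rose and 6 fell in 2D dSRF (median -0.19). Leaving out the library labelled 3D dSRF 1 gave 12 and 5 in 3D, where 72.8% of all genes were called, and 7 and 10 in 2D, where 72.0% were. LIF, a cytokine, rose to 177 ± 10.6 CPM in 3D dSRF, against 27.1 ± 0.903 CPM in 3D control (2.71 ± 0.08, adjusted p = 6.13e-16). It also rose in 2D dSRF (1.76), 3D WT (0.70) and 2D WT (0.71; edgeR adjusted p = 2.51e-13, 5.80e-07 and 3.24e-07). In 3D dSAP the rise was 0.21 (edgeR adjusted p = 0.0460), a call lost in 12 of 14 alternative fits, and in 2D dSAP LIF was not called. ETV4, an ETS factor downstream of ERK, reached 211 ± 63.0 CPM in 3D dSRF against 35.3 ± 2.58 CPM in 3D control (2.58 ± 0.15, adjusted p = 1.00e-11) and in dSAP and WT was not called with edgeR in either culture. With the library labelled 3D dSRF 1 left out ETV4 was called lower in 2D dSAP (-0.19, adjusted p = 0.00363) and 2D WT (-0.19, adjusted p = 0.00424). It was called higher in 3D WT (0.16, adjusted p = 0.0213). All 3 were called with only the libraries compared too. The receptor EPHA2 rose by 1.46 ± 0.07 in 3D dSRF (adjusted p = 1.91e-12) and by 0.71 ± 0.07 in 2D dSRF (adjusted p = 6.35e-08). It rose by 0.34 in 3D WT too (edgeR adjusted p = 0.00117). In 2D dSAP it stood at -0.24 (edgeR adjusted p = 0.0144, lost without 2D control 3 or 2D dSAP 2). In 2D WT and 3D dSAP it was not called in the edgeR fit of all libraries. In the other lines the same 18 genes gave 4 higher and 4 lower in 3D dSAP, 2 higher and 8 lower in 2D dSAP, 6 higher and 2 lower in 3D WT and 5 higher and 4 lower in 2D WT. With that 3D dSRF library left out these became 5 and 5, 4 and 10, 10 and 3, and 6 and 8, where the share of all genes called was 44.0% in 3D dSAP, 47.1% in 2D dSAP, 48.1% in 3D WT and 51.9% in 2D WT.

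Of 5 other MAP kinase phosphatases tested, 0 rose and 3 fell in 3D dSRF, and 0 rose and 4 fell in 2D dSRF. Of all genes tested, 35.1% rose and 31.3% fell in 3D dSRF, and 34.5% rose and 31.5% fell in 2D dSRF. With 5 genes, nothing is read from these counts. DUSP2, a nuclear ERK and p38 phosphatase, averaged 0.436 ± 0.406 CPM in 3D dSRF against 6.23 ± 0.222 CPM in 3D control (-3.75 ± 0.34, adjusted p = 8.70e-09) and 1.16 ± 0.437 CPM in 2D dSRF against 4.68 ± 1.19 CPM in 2D control (-1.97 ± 0.31, adjusted p = 1.58e-05). In 2D WT DUSP2 rose by 1.95 ± 0.27 (adjusted p = 7.59e-06), and in 2D dSAP by 0.93 (edgeR adjusted p = 0.0103, lost without 2D control 3). DUSP7, a cytoplasmic ERK phosphatase, fell in dSRF by 0.41 on the log2 scale in 3D (adjusted p = 5.36e-06) and by 0.49 in 2D (adjusted p = 6.29e-07). It stood at -0.31 in both 2D dSAP and 2D WT (edgeR adjusted p = 0.000425 and 0.000374) and at -0.23 in 3D dSAP (edgeR adjusted p = 0.00523). In 3D WT it was not called. The 5 genes gave 0 higher and 3 lower in 3D dSAP, 2 and 3 in 2D dSAP, 0 and 2 in 3D WT and 1 and 2 in 2D WT. In these 4 comparisons 16.5% to 20.1% of all genes rose and 13.1% to 19.2% fell.

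Of 25 other immediate early genes, 17 rose and 3 fell in 3D dSRF (median 0.72) and 13 rose and 5 fell in 2D dSRF (median 0.72), 7 rose and 5 fell in 3D WT, 9 rose and 2 fell in 2D WT, 6 rose and 1 fell in 3D dSAP and 5 rose and 1 fell in 2D dSAP. Without the library labelled 3D dSRF 1 the counts in that order were 16 and 6, 16 and 8, 9 and 8, 14 and 5, 7 and 6, and 9 and 5. The share of all genes called in that fit was, in the same order, 72.8%, 72.0%, 48.1%, 51.9%, 44.0% and 47.1%. With all libraries 35.1% of all genes rose and 31.3% fell in 3D dSRF, and 34.5% and 31.5% in 2D dSRF. In dSAP and WT 16.5% to 20.1% rose and 13.1% to 19.2% fell. ATF3, a stress-induced transcription factor, rose in all 6 comparisons, by 2.69 ± 0.11 in 3D dSRF (adjusted p = 5.98e-14) and 1.81 ± 0.10 in 2D WT (adjusted p = 1.95e-11). TRIB1, a pseudokinase that binds MEK, rose by 2.79 ± 0.15 in 3D dSRF (adjusted p = 5.21e-12) and 2.18 ± 0.15 in 2D dSRF (adjusted p = 2.06e-10). In 2D WT it rose by 0.76 (edgeR adjusted p = 0.000515). In dSAP and 3D WT it was not called in the edgeR fit of all libraries.

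Among 4 EGR partners tested, 3 rose and 1 fell in 3D dSRF and 2 rose and 1 fell in 2D dSRF, with 1 higher and 1 lower in each of the other 4 comparisons. Without the library labelled 3D dSRF 1 the number lower was 3 in 2D dSAP and 2 in 3D dSAP and in 3D WT. That fit called 47.1% of all genes in 2D dSAP, 44.0% in 3D dSAP and 48.1% in 3D WT. With all libraries 35.1% of all genes rose and 31.3% fell in 3D dSRF, and 34.5% and 31.5% in 2D dSRF. In dSAP and WT 16.5% to 20.1% rose and 13.1% to 19.2% fell. EGR4, the remaining EGR family member, was called higher in every line and culture, for example at 1.34 ± 0.232 CPM in 2D WT, against 0.162 ± 0.0330 CPM in 2D control (2.98 ± 0.43, adjusted p = 1.45e-05). It is a low-count gene like EGR2 and EGR3, so the size of its rise is uncertain. The edgeR fit of all libraries gave 2.31 (2D dSAP) to 3.03 (3D dSRF). The lowest values over the alternative fits were 0.48 (3D WT) to 1.11 (2D WT), all still called. NAB2, a corepressor that EGR1 recruits, rose by 1.19 ± 0.17 in 3D dSRF (adjusted p = 5.62e-06) and by 1.43 ± 0.18 in 2D dSRF (adjusted p = 8.05e-07), while EGR1 was lower there. NAB1, its relative, fell by 0.71 on the log2 scale in 3D dSRF (adjusted p = 4.04e-10). It was called lower in every line and culture, at -0.33 to -0.23 in dSAP and WT. In 2D dSRF it stood at -0.17 (edgeR adjusted p = 0.00852, lost on both TPM scales).

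Among 8 genes tested of SRF and its cofactors, 5 rose and 2 fell in 3D dSRF, 3 rose and 3 fell in 2D dSRF, 4 rose and 3 fell in 3D dSAP, 4 rose and 2 fell in 2D dSAP, and 3 rose and 3 fell in WT in both cultures. MRTFA itself is one of them. Beside these counts, 35.1% of all genes rose and 31.3% fell in 3D dSRF, and 34.5% and 31.5% in 2D dSRF. In dSAP and WT 16.5% to 20.1% rose and 13.1% to 19.2% fell. SRF was higher in WT by 2.17 ± 0.09 in 3D (adjusted p = 1.01e-13) and 1.84 ± 0.08 in 2D (adjusted p = 1.11e-12), and in dSAP by 1.80 ± 0.09 in 3D (adjusted p = 4.34e-12) and 1.60 ± 0.08 in 2D (adjusted p = 2.63e-11). In dSRF it stood at 0.32 ± 0.08 in 3D (adjusted p = 0.00217, not called with only the libraries compared, or 0.16 without the library labelled 3D dSRF 1) and at 0.10 ± 0.08 in 2D (adjusted p = 0.284). ELK1, an ETS cofactor of SRF, rose by 1.05 ± 0.04 in 3D dSRF (adjusted p = 6.94e-14) and by 1.01 ± 0.04 in 2D dSRF (adjusted p = 1.81e-13), and fell in 3D and 2D dSAP by 0.23 and 0.16 and in 3D and 2D WT by 0.23 and 0.25 on the log2 scale. The 2D dSAP call of ELK1 was lost on the TPM scale (adjusted p = 0.0871 to 0.0880).

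Of 19 genes of the RAS and ERK cascade, 5 rose and 10 fell in 3D dSRF, 8 rose and 8 fell in 2D dSRF, 4 rose and 1 fell in 3D dSAP, 4 rose and 2 fell in 2D dSAP, 5 rose and 2 fell in 3D WT and 5 rose and 6 fell in 2D WT. Without the library labelled 3D dSRF 1 the counts were 6 and 3 in 3D dSAP, 7 and 3 in 2D dSAP and 8 and 3 in 3D WT. That fit called 44.0%, 47.1% and 48.1% of all genes in these 3 comparisons. With all libraries 35.1% of all genes rose and 31.3% fell in 3D dSRF, and 34.5% and 31.5% in 2D dSRF. In dSAP and WT 16.5% to 20.1% rose and 13.1% to 19.2% fell. MAPK3, which encodes ERK1, was lower in dSRF, at 14.5 ± 3.31 CPM in 3D dSRF against 29.4 ± 1.66 CPM in 3D control (-1.01 ± 0.12, adjusted p = 2.63e-07) and 15.7 ± 1.86 CPM in 2D dSRF against 47.5 ± 1.81 CPM in 2D control (-1.59 ± 0.12, adjusted p = 5.18e-10). RPS6KA3, an ERK-activated kinase, rose most in WT, by 0.80 ± 0.04 in 3D (adjusted p = 1.90e-11) and 0.90 ± 0.04 in 2D (adjusted p = 3.18e-12). Of 9 heat shock genes tested, 4 rose and 2 fell in 3D dSRF and 4 rose and 1 fell in 2D dSRF, 2 rose and 1 fell in 3D dSAP and 3 rose and 0 fell in 2D dSAP, and 4 rose and 1 fell in 3D WT and 2 rose and 0 fell in 2D WT. The shares of all genes with all libraries, given above in this paragraph, hold for these counts too. Summed over 10 heat shock genes, the level was 3281 to 4769 CPM in 3D dSRF, 5089 to 5140 in 3D dSAP, 5072 to 5274 in 3D WT and 4315 to 4623 in 3D control, and 3713 to 3823 CPM in 2D dSRF, 4345 to 4530 in 2D dSAP, 4416 to 4498 in 2D WT and 3946 to 4001 in 2D control. Their part in the changes of DUSP1 and the other members was not tested. Leaving out the library labelled 3D dSRF 1, 2 of the heat shock genes rose and 4 fell in 3D dSRF and 4 rose and 3 fell in 2D dSRF. In dSAP 3 rose and 2 fell in 3D and 5 rose and 2 fell in 2D, and in WT 4 rose and 3 fell in 3D and 4 rose and 2 fell in 2D. That fit called 72.8% and 72.0% of all genes in 3D and 2D dSRF, and 44.0% to 51.9% in dSAP and WT.

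**Figure D4:**
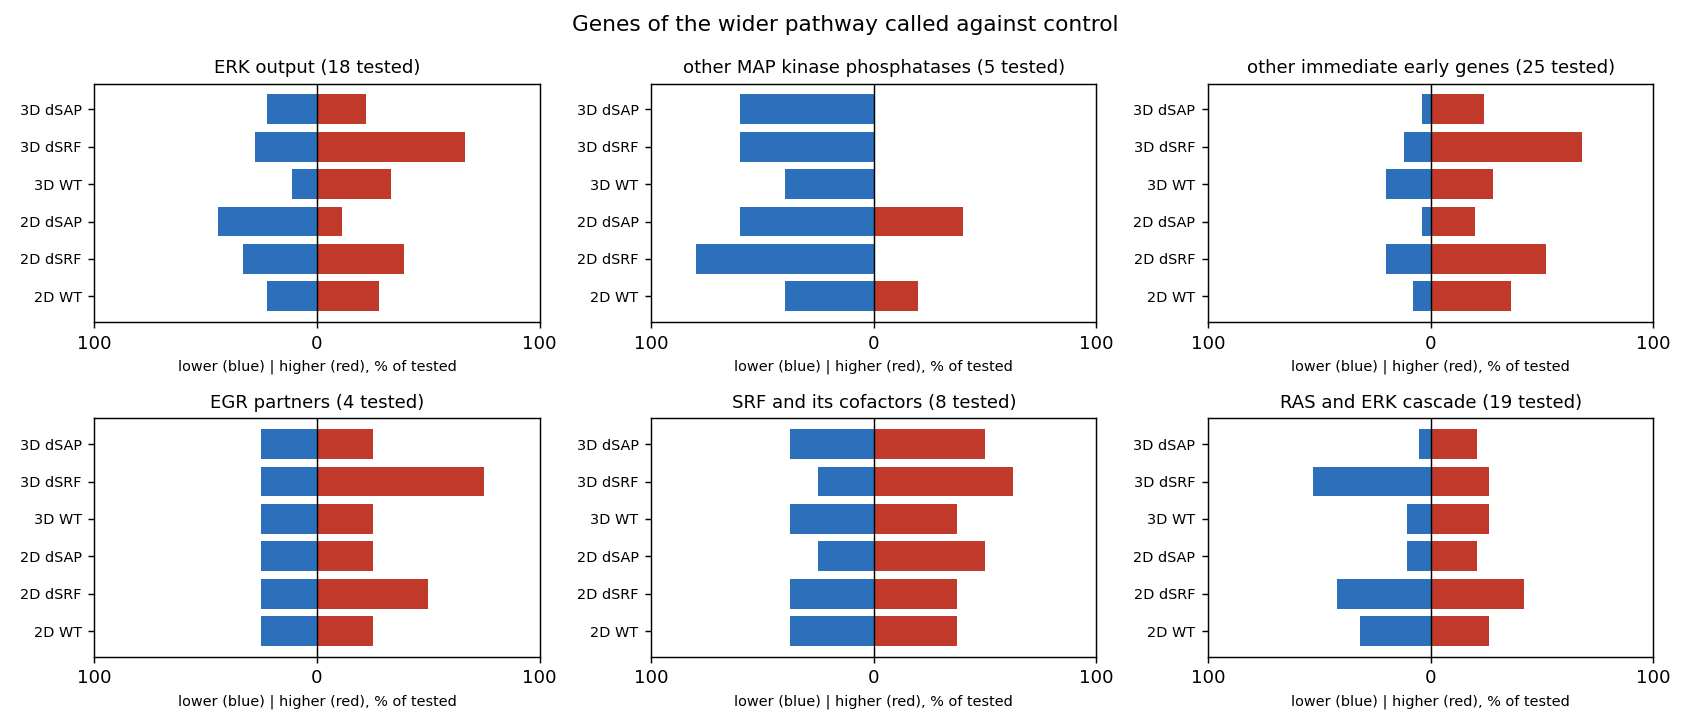
Share of the tested genes of 6 pathway lists called lower (blue, left of 0) or higher (red, right of 0) than control of the same culture, in percent, by line and culture. In 3D dSRF 12 of 18 ERK output genes and 17 of 25 other immediate early genes were higher, while of 5 other MAP kinase phosphatases 0 were. Of all genes tested, 35.1% were higher and 31.3% lower in 3D dSRF.

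The genes whose log2 CPM followed each member most closely over the 24 libraries were taken from 12562 genes, as a description in which all libraries and their groups are shared. DUSP1 was most like RHOQ and RIPK2 (r = 0.99 each) and ANO10 (0.98). DUSP5 was most like TNFAIP1, ATP6V1E1 and SUN3 (0.98 each), and DUSP6 like RAB34 (0.99), PLXNB2 and SCNN1A (0.98 each). For IER2 the nearest were AGAP3 (0.96), BHLHE40 and ARHGAP40 (0.95 each), and for EGR1 UQCRH (0.95), BAD and TRAK1 (0.94 each). The low-count genes had looser neighbours: EGR2 had MAGI1 (0.87) and CYP51A1 (0.85), EGR3 had PDZD7 and CCPG1 (0.88 each) and NAV1 (0.86), and IER3 had ZNF260 (0.67), GALK2 and HTT (0.66 each). Members were left out of each other's search.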

How the data were processed

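Per the labels' protocols, total RNA from a spin-column kit was depleted of ribosomal RNA and made into stranded libraries, while another label calls the molecule polyA RNA. Reads were processed with FastQC and Salmon (version 11.3 as written) on hg38, per the submitters' processing notes. For the annotation and strand setting of the counting, the sources used here give nothing. The authors deposited a table of expected counts and a table of TPM values per gene for the 24 libraries. Symbols and positions were matched by gene id (34436 and 34620 of 37247, GENCODE 29).

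The members and gene lists were chosen with earlier results of these data known. The expected counts were rounded, filtered (filterByExpr), scaled by TMM (factors 0.89 to 1.09) and fitted in edgeR 4.0.16 (R 4.3.3) with 8 group means, leaving 16 residual degrees of freedom and a common biological coefficient of variation of 13.1%. In all, 17 comparisons were tested, each adjusted over all 14986 genes by the Benjamini-Hochberg method. Standard errors come from the fold change and F statistic. Named genes were the 8 members, MRTFA, up to 3 genes per list with the lowest p against control, and the 3 most correlated genes with a mean of at least 1 CPM. One of the correlated genes is not reported here. Counting intervals are exact. The fit was also run on simulated counts with known fold changes, whose outcome is not given here and is not used as support. The fit was repeated with DESeq2 1.42.0, with limma 3.58.1 on log2(TPM + 1) and log2(TPM + 0.1), with RLE size factors, with all genes unfiltered, with a replicate block, on only the libraries compared, and leaving out each library in turn. The library labelled 3D dSRF 1 was also left out of every comparison, since earlier results had named it, and out of the list counts, a choice made after seeing the data. Groups from the genotype field were not used.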

Additional observations from a re-analysis of the deposited data

Results flagged for a closer look

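Differences of a line's effect between cultures are listed here because the difference itself passed edgeR's test (adjusted p under 0.05 over all genes). The dSRF effect against control was more positive in 3D than in 2D for IER2 by 0.82, for DUSP1 by 0.78, for DUSP5 by 1.33 and for DUSP6 by 0.69 (log2). The 3D dSRF group holds the library labelled 3D dSRF 1, and without it these differences were 1.03, 0.99, 0.94 and 0.93. The calls of DUSP1 and DUSP6 were lost in 11 and 4 of 19 alternative fits. For DUSP1, DUSP5 and DUSP6 the dSRF level itself was not called different between cultures with all libraries (0.25, 0.18 and -0.24, 3D against 2D). The control level of these genes was called lower in 3D (-0.52, -1.15 and -0.93). The WT effect was more negative in 3D than in 2D for EGR1 by -1.35 and for DUSP1 by -1.67. No explanation of these differences was tested.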

How the results depend on the processing

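Of the 136 values of the 8 genes over the 17 comparisons, 136 kept direction and side of the threshold with RLE factors and 132 with a replicate block, 127 without a filter, 122 on log2(TPM + 1) and 120 on log2(TPM + 0.1), as did 124 of 131 with DESeq2, 87 of 107 with only the libraries compared and 975 of 1064 with a library left out. Same-numbered libraries deviated together at r = -0.13 to 0.11, so no shift shared by number was visible. Whether same-numbered libraries were prepared together cannot be told from this. The block ended 1 call (EGR3, 3D dSRF against control) and added 3 (IER3 in 2D dSAP and 2D dSRF against control and in control 3D against 2D). Members called in 2D dSAP against WT numbered 1 without a filter and 0 on both TPM scales. In 3D dSAP against WT they numbered 1 with DESeq2 and 2 on both TPM scales and with only the libraries compared. For dSRF 3D against 2D, only the libraries compared gave 0 members and 0 genes, and the TPM scales 1693 and 1609 genes (main 2551), while DUSP5 ran from -0.21 (without 3D dSRF 1) to 0.34 with 1 library left out. For the dSAP effect DESeq2 gave 1 member and 600 genes, the TPM scales 200 and 164 genes, and only the libraries compared 2 members and 1400 genes (main 350). For the dSRF effect both TPM scales and only the libraries compared gave 2 members, the last with 2642 genes (main 4379). For the WT effect the TPM scales gave 909 and 870 genes, and only the libraries compared 4 members and 3463 genes (main 1376). Only the libraries compared gave 4288 genes for 2D dSAP against WT (main 1919) and 4607 for 3D dSAP against WT (main 1810). CD44 in 3D dSRF against control turned to 0.19 on both TPM scales (main -0.11). The cause of these shifts was not tested.

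With 1 library left out, members and genes called ran as follows. Against control they were 1 to 2 and 3517 to 6715 in 3D dSAP, 5 to 6 and 9418 to 11098 in 3D dSRF, 1 to 3 and 4387 to 7335 in 3D WT, 2 to 4 and 3899 to 7178 in 2D dSAP, 6 to 7 and 9223 to 10979 in 2D dSRF, and 4 to 6 and 4982 to 7912 in 2D WT. Against WT they were 0 to 2 and 1186 to 4149 in 3D dSAP, 5 to 6 and 9175 to 11107 in 3D dSRF, 0 to 4 and 1171 to 4220 in 2D dSAP, and 5 to 7 and 8939 to 10774 in 2D dSRF. For 3D against 2D they were 4 to 6 and 6198 to 9038 in dSAP, 1 to 4 and 1599 to 7351 in dSRF, 4 to 6 and 6495 to 9272 in WT, and 3 to 6 and 5979 to 8938 in control. For the differences of effect they were 0 to 2 and 206 to 1738 for dSAP, 2 to 4 and 3679 to 6680 for dSRF, and 1 to 5 and 973 to 3636 for WT. EGR2, EGR3 and IER3 are limited by depth, and groups from the genotype field were not run.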
